A study of Homo sapiens with 4 samples.

Results

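The genes described here are 9 tubulin genes, TUBA1A, TUBA1B, TUBA1C, TUBA4A, TUBB, TUBB2A, TUBB3, TUBB6 and TUBG1, and the stathmin gene STMN1. They were chosen as every spot, other than control spots, whose gene name on the array is one of these symbols. All 10 were found among the 27193 gene names of the array, and all 10 were among the 21939 genes tested. Total RNA of MCF10A.B2 cells was compared between 2 control arrays and 2 arrays of cells expressing an shRNA directed at PAK1 (PAK1 shRNA). MCF10A.B2 is a derivative of the non-tumorigenic human mammary epithelial line MCF10A that carries a form of Her2 (ErbB2) which the crosslinker AP1510 switches on. Cells of both groups carried this receptor, were grown with 5% horse serum, serum starved for 3 h and then given AP1510 for 15 min, so no array without AP1510 was analysed here. The series text calls the shRNA Tet inducible, while the sample labels name neither the inducer nor whether control cells carry an uninduced shRNA. The series text also speaks of tumor derived cells, whereas the sample labels name the cell line. The labels do not say how the replicates were obtained, so the p-values measure the spread between these arrays, which may be technical. No array of a non-targeting shRNA was analysed here.

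Microtubules are polymers of alpha-tubulin and beta-tubulin, which humans encode in several closely related genes. Gamma-tubulin, in ring complexes at the centrosome, gives new microtubules their starting point, and folding cofactors assemble the alpha-beta pair. Stathmin binds free tubulin and promotes disassembly of microtubules, and kinases including PAK1 relieve this by phosphorylating it. Tubulin RNA is itself degraded when free tubulin is plentiful, and many genes of the mitotic spindle are transcribed mainly in dividing cells.

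Tubulin genes resemble each other closely in their coding parts, so the probes are shown before the values. Each probe is 60 bases long, and the 10 genes had 18 probes. TUBA1C had a probe, A_24_P58529 (hg19, chr12:49666285-49666344, plus strand), whose annotation in the scanner files lists transcripts of both TUBA1C and TUBA1B, so its signal cannot be assigned to either gene alone. Probe A_23_P152768 of TUBG1 (hg19, chr17:40765022-40765081, plus strand) and probe A_23_P78014 of its paralog TUBG2 share 36 of 38 bases, and the annotation of the TUBG2 probe also lists TUBG1. No probe was compared with the transcript sequences of paralogs, so signal from paralogs in the remaining probes was not tested. The sequences are printed 5′ to 3′ because they bear on how far these paralogs can be separated. The stretch that both gamma-tubulin probes cover is in capitals.
TUBA1C and TUBA1B, A_24_P58529: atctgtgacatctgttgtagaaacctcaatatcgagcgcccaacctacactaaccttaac
TUBG1, A_23_P152768: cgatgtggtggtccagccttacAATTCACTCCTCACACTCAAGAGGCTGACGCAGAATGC
TUBG2, A_23_P78014: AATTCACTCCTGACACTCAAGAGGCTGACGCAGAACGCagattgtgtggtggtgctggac

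PAK1, the target of the shRNA and a check of the labels, had normalized log2 intensities of 11.19 and 11.27 in control cells against 10.44 and 10.51 in PAK1 shRNA cells. This gave a log2 fold change of -0.76 (limma, adjusted p = 0.000181, standard error 0.08), or 59.2% of the control level. The direction of PAK1 followed the labels on every array. The number of arrays limits the precision, and the lowest two-sided p of an exact permutation test on 1 gene is 0.333 with this design. Control arrays were brighter before normalization, with a median raw spot signal of 501 and 384 against 326 and 319. All 8 markers of basal mammary epithelium were well above background on all arrays, among them KRT5, KRT14 and TP63.

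Every one of the 10 genes was lower in PAK1 shRNA cells and passed the threshold, a limma p under 0.05 after adjustment over all genes by the Benjamini-Hochberg method. The background for this count is large, since 62.6% of all genes tested passed the same threshold, 32% as lower and 30.6% as higher in PAK1 shRNA cells. The groups did not overlap for any of the 10 genes (TUBA1B with 1 control array), as for 82% of all genes tested. A fall of at least 2-fold was measured for 8 of the 10, all but TUBB3 and TUBB6, and 17.9% of all genes tested passed the threshold with a change of that size in either direction. The 10 genes had a median log2 fold change of -1.76, and all genes tested had one of 0.02. In bulk RNA, fewer cells that hold a transcript and less of it per cell cannot be told apart.

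**Figure D1:**
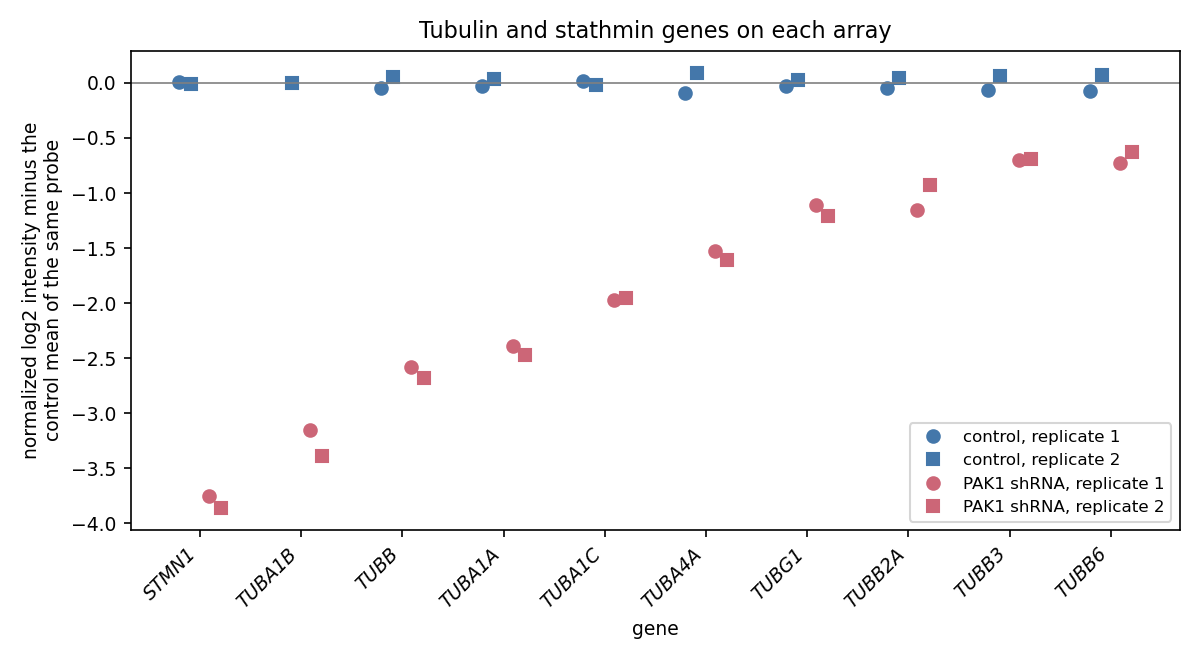
Normalized log2 intensity of the probe that stands for each gene, minus the mean of the control arrays for that probe, with 1 point per array. All PAK1 shRNA points lie below the control points, from about -3.8 for STMN1 to about -0.7 for TUBB3 and TUBB6, and TUBA1B has no point for control replicate 1 because that spot was flagged.

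STMN1, which encodes stathmin, fell most of the 10 genes. Its probe A_33_P3317523 (hg19, chr1:26227232-26227291, minus strand) read 15.01 and 15.00 in control cells against 11.25 and 11.14 in PAK1 shRNA cells, as normalized log2 intensities. Both PAK1 shRNA arrays lay far below both control arrays. The log2 fold change was -3.81 (limma, adjusted p = 4.28e-07, standard error 0.08), or 7.14% of the control level. Before normalization, the mean spot signal was 42191 and 33547 in control cells against 2033 and 1846 in PAK1 shRNA cells. Among all genes tested, 0.273% had a lower log2 fold change than STMN1. The annotation of this probe lists 3 RefSeq transcripts of the gene, all matched to STMN1.

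The second STMN1 probe did not fall. A_24_P342511 lies elsewhere in the gene (hg19, chr1:26211435-26211494, minus strand) and lists a single other transcript. It was dim, with normalized log2 intensities of 7.00 and 7.10 in control cells against 7.33 and 7.35 in PAK1 shRNA cells. The PAK1 shRNA arrays were slightly higher, without overlap, and the log2 fold change was 0.29 (limma, adjusted p = 0.0136 over all probes, standard error 0.08). Its adjusted p rose to 0.0635 without control replicate 1, 0.0504 without PAK1 shRNA replicate 1 and 0.0614 without PAK1 shRNA replicate 2. The fall of STMN1 was thus measured by its brighter probe only, and the mean over both probes had a log2 fold change of -1.76.

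The alpha-tubulin genes had log2 fold changes from -3.27 (TUBA1B) to -1.57 (TUBA4A). TUBA1B encodes a widely expressed alpha-tubulin, and its only probe (hg19, chr12:49521633-49521692, minus strand) read 17.68 on control replicate 2 against 14.53 and 14.30 in PAK1 shRNA cells. Its spot on control replicate 1 was flagged for an uneven local background and left out, so the fit used 3 arrays and took its spread from the PAK1 shRNA arrays and from other genes, with the lone control array assumed to vary alike. The log2 fold change was -3.27 (limma, adjusted p = 1.16e-05, standard error 0.13), or 10.4% of the control level. With flagged spots kept, control replicate 1 read 17.64, close to control replicate 2, and the log2 fold change over all 4 arrays was -3.23 (limma, adjusted p = 2.07e-06, standard error 0.10).

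TUBA1A, the alpha-tubulin gene best known from developing neurons, read 14.79 and 14.85 in control cells against 12.43 and 12.34 in PAK1 shRNA cells. This gave a log2 fold change of -2.43 (limma, adjusted p = 1.61e-06, standard error 0.08). TUBA1C, another broadly expressed alpha-tubulin gene, read 17.95 and 17.91 in control cells against 15.96 and 15.98 in PAK1 shRNA cells through its own probe A_24_P188071, a log2 fold change of -1.96 (standard error 0.07). Replicates of a group differed by far less than the groups for both genes. The probe that lists TUBA1C and TUBA1B together, printed above, had a log2 fold change of -2.49, which lies between the -1.96 of the TUBA1C probe and the -3.27 of the TUBA1B probe.

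TUBA4A, an alpha-tubulin gene known for its high level in platelets, had 3 probes that fell by similar amounts. The probe that stands for the gene read 13.97 and 14.15 in control cells against 12.53 and 12.45 in PAK1 shRNA cells, a log2 fold change of -1.57 (standard error 0.09). The probe A_23_P84448 had -1.86. The annotation of both these probes also lists a transcript that was not matched to a gene. The third, A_23_P154065, which lists TUBA4A alone, had -1.60 without its flagged spot on control replicate 2 and -1.63 with it. All 3 values lie closer to each other than to the -2.43 of TUBA1A.

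Of the beta-tubulin genes, TUBB fell most. TUBB, the main beta-tubulin gene of most dividing cells, read 15.37 and 15.47 in control cells against 12.84 and 12.75 in PAK1 shRNA cells. The difference was -2.63 on the log2 scale (limma, adjusted p = 1.54e-06, standard error 0.08), or 16.2% of the control level. A further probe of TUBB gave the same -2.63, and the last gave -1.99.

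TUBB2A, a beta-tubulin gene best known from the brain, read 13.21 and 13.30 in control cells against 12.10 and 12.33 in PAK1 shRNA cells. This gave a log2 fold change of -1.04 with a standard error of 0.10, whereas its other probe gave -0.76. TUBB3, a beta-tubulin gene used as a marker of neurons, read 12.87 and 12.99 in control cells against 12.23 and 12.24 in PAK1 shRNA cells, a log2 fold change of -0.70 (limma, adjusted p = 0.000295, standard error 0.08). The falls of these genes were smaller than that of TUBB, and the groups did not overlap for either gene.

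TUBB6, a broadly expressed beta-tubulin gene, read 16.87 and 17.01 in control cells against 16.22 and 16.32 in PAK1 shRNA cells. It had the smallest fall of the 10 genes, a log2 fold change of -0.68 (limma, adjusted p = 0.000501, standard error 0.08), or 62.5% of the control level. Among all genes tested, 16.3% had a lower log2 fold change than TUBB6, against 1.02% for TUBB. The 95% confidence intervals of TUBB (-2.82 to -2.43) and TUBB6 (-0.88 to -0.47) did not overlap, and the difference between genes was not tested.

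TUBG1, which encodes gamma-tubulin, read 14.50 and 14.55 in control cells against 13.41 and 13.31 in PAK1 shRNA cells through its probe A_33_P3363898 (hg19, chr17:40767187-40767246, plus strand). Its log2 fold change was -1.16 (limma, adjusted p = 2.86e-05, standard error 0.08), or 44.8% of the control level. The other TUBG1 probe, which shares most of its overlap with TUBG2, had a log2 fold change of -0.58. TUBG2 itself, a second gamma-tubulin gene, had a log2 fold change of -0.15 and did not pass (limma, adjusted p = 0.245).

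Taken probe by probe, 17 of the 18 probes were lower and 1 was higher at an adjusted p under 0.05 over all probes tested. Of all probes tested, 63.5% passed, 32.8% as lower and 30.8% as higher. The groups did not overlap for any of the 18 probes, as for 82.4% of all probes. None of the 18 was saturated on any array, and 2 of their 72 spots were flagged.

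**Figure D2:**
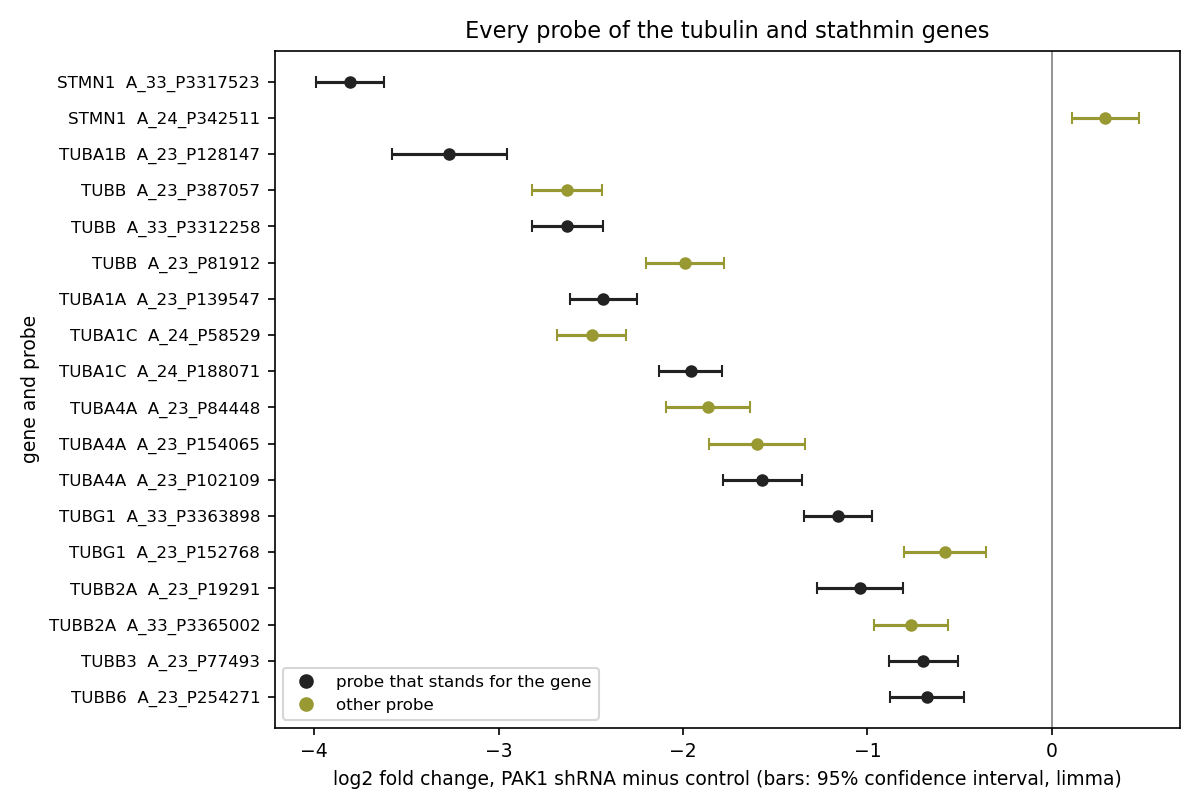
Log2 fold change of each of the 18 probes, PAK1 shRNA minus control, with 95% confidence intervals from limma. The second STMN1 probe alone lies above 0, at 0.29, while the other 17 lie between -3.81 and -0.58.

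Other tubulin and stathmin genes moved less uniformly. Of 15 other tubulin genes listed, 13 were on the array and 11 were tested, with 7 lower, 1 higher and 3 that did not pass, and a median log2 fold change of -0.45. TUBB4B, a beta-tubulin gene named TUBB2C on the array, had -2.49, close to TUBB. TUBB8, a beta-tubulin gene known from the oocyte, had -1.88, but a second, dim TUBB8 probe had 0.02 and the 2 probes disagree. TUBA3C, an alpha-tubulin gene whose probe also lists TUBA3D, had -1.01, and the probe of TUBA3D, which also lists TUBA3E, had 0.04 and did not pass.

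Among the distant members of the family, TUBE1 (epsilon-tubulin) had a log2 fold change of -0.73 and TUBD1 (delta-tubulin) of -0.58, and both were lower. TUBAL3 had -0.45 through its brighter probe and -0.03 through the dimmer, and its call was lost under the 75th percentile scaling, the mean over probes and an ordinary t-test, and without control replicate 2 (limma, adjusted p = 0.056) or PAK1 shRNA replicate 2 (0.067). TUBB4Q was not well above background on the PAK1 shRNA arrays, so the size of its fall is uncertain. Its log2 fold change was -0.25 (limma, confidence interval from -0.42 to -0.07), and its direction turned under median centring (0.09). The call of TUBB4Q was lost with any of the 4 arrays left out, at adjusted p from 0.051 to 0.123 (limma), and its probe also lists TUBBP5 and shares 54 of 57 bases with a TUBB8 probe. TUBA8 was the single tubulin gene that was higher, with 0.55 (limma, adjusted p = 0.000654, standard error 0.07). TUBB4A, named TUBB4 on the array, had -0.20 and did not pass, and TUBB1 and TUBB2B were not well above background.

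Neither of the other stathmin genes tested was lower. STMN3, a stathmin of neurons, was higher, with normalized log2 intensities of 8.38 and 8.47 in control cells against 8.81 and 8.82 in PAK1 shRNA cells and a log2 fold change of 0.39. STMN4 had 0.10 and did not pass, although it passed as higher under median centring, and STMN2 was not well above background.

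Of 8 kinases known to phosphorylate stathmin, 6 were lower and 2 higher, with a median log2 fold change of -0.73. The lower ones include PAK1, whose fall the shRNA was designed to cause. CDK1, the main kinase of mitotic entry, read 12.83 and 13.04 in control cells against 9.39 and 9.35 in PAK1 shRNA cells, a log2 fold change of -3.57. AURKB, a kinase of the chromosomal passenger complex, had -2.85 and CDK2, which acts in S phase, had -1.01. Smaller falls were measured for PAK1 itself (-0.76), PRKACA, a catalytic subunit of protein kinase A (-0.70), and CAMK4, a calcium-dependent kinase (-0.60). UHMK1, which binds and phosphorylates stathmin, was higher with 0.67. MAPK13, a p38 kinase, was higher with 0.30, but its call was lost under median centring, the 75th percentile scaling, the mean over probes, the authors' log2 values and an ordinary t-test, and without control replicate 1 (limma, adjusted p = 0.148) or PAK1 shRNA replicate 2 (0.194).

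Genes of the gamma-tubulin ring complex and of augmin, which brings the complex to spindle microtubules, were mostly lower, as TUBG1 was. Of 16 tested, 11 were lower, 1 was higher and 4 did not pass, with a median log2 fold change of -1.30. The largest falls were those of MZT1, a small ring complex subunit, with -3.06, and HAUS8, an augmin subunit, with -2.92. NEDD1, which anchors the ring complex at centrosomes, was the exception, with normalized log2 intensities of 13.54 and 13.59 in control cells against 15.18 and 15.66 in PAK1 shRNA cells, a log2 fold change of 1.85.

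Genes for the folding of tubulin were mostly lower too. Of 21 tested, which include chaperonin and prefoldin subunits, 15 were lower, 2 were higher and 4 did not pass, with a median log2 fold change of -0.77. Of the tubulin cofactors, TBCA had -1.43, TBCE -1.27 and TBCD -0.90, while TBCC, which completes release of the tubulin pair, was higher with 0.47. TBCB had -0.08, did not pass and changed sign under cyclic loess (0.10) and under the 75th percentile scaling (0.04). PFDN5, a prefoldin subunit, was the other gene that was higher, with 0.30, but its call was lost without PAK1 shRNA replicate 1 (limma, adjusted p = 0.052) or PAK1 shRNA replicate 2 (0.070).

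Genes for tubulin modification and for microtubule binding outside mitosis were mixed. Of 20 modifying enzymes and partners tested, 10 were lower and 6 higher, with a median of -0.31. VASH1, part of an enzyme that removes the end tyrosine of alpha-tubulin, had a log2 fold change of -1.72 and AGBL5, a deglutamylase, had -1.25. AGBL2 had 0.95 and TTLL9 had 0.51, but both were dim in control cells (6.69 and 6.52 for AGBL2, 6.79 and 6.93 for TTLL9). Of 24 genes for interphase microtubule binding and severing, 13 were lower and 4 higher, with a median of -0.29. FIGNL1 had -1.50 and KATNA1, a severing subunit of katanin, had -1.11, while MAP2 had 1.51 and MAP7 had 0.78.

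Spindle microtubule binding genes were lower without exception. All 14 passed as lower, with a median log2 fold change of -4.23 and a range from -5.17 to -0.91. ASPM, a spindle pole protein, read 15.71 and 15.62 in control cells against 10.56 and 10.43 in PAK1 shRNA cells, a log2 fold change of -5.17, and DLGAP5, which stabilizes spindle fibres, had -5.11. The falls of STMN1 and the tubulin genes moved with falls of genes used in dividing cells, and the part of cell division in them was not tested.

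Genes with the pattern most like that of STMN1 were sought over the 4 arrays among 20022 genes, by the root mean square difference of normalized log2 values after each gene was centred on its own mean. They were HMGB2, a chromatin protein (0.04), TTK, a spindle checkpoint kinase (0.04), and CKAP2L, a spindle protein (0.06). Those most like TUBB were RNASEH2A, a subunit of ribonuclease H2 (0.02), PSIP1, a chromatin protein (0.03), and DSCC1, which acts in sister chromatid cohesion (0.03). The likeness is a description over arrays that all genes share.

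Promoter sequences of all 10 genes were found in RefSeq (GRCh38.p14), and the 250 bases before the first listed start of each were searched on both strands for short motifs. The CCAAT motif was present in 5 of the 10, against 32% of 35116 promoters of that length. An E2F motif (TTTCCCGC, TTTGGCGC, TTTCGCGC or TTTGCCGC) was present in 2 of the 10, STMN1 and TUBG1, against 2.8% of all. The CHR motif (TTTGAA or TTCGAA) was present in TUBA1C alone, against 14.3%, the GC box (GGGCGG) in 6 of the 10, against 42.6%, and TATAAA in TUBB2A alone, against 10.7%. A match is a description of letters and not a binding site.
The last 150 bases before the start are shown for the genes with an E2F motif, with the CCAAT and E2F motifs in capitals (ATTGG is CCAAT on the other strand).
STMN1, GRCh38.p14, chr1:25906420-25906569, minus strand: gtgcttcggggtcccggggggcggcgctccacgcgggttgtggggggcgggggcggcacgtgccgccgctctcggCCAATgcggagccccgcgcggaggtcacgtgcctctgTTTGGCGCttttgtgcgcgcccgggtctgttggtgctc
TUBG1, GRCh38.p14, chr17:42609533-42609682, plus strand: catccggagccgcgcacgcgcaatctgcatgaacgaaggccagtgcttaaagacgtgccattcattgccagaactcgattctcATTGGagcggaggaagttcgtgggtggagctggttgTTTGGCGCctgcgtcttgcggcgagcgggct
In STMN1 the CCAAT motif ended 71 bases and the E2F motif began 38 bases before the start, and in TUBG1 these distances were 63 and 31 bases.

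Markers of other cell types were measured beside these results. The summed level of 4 of 7 fibroblast markers was 12.20 and 11.96 in control cells against 12.96 and 12.93 in PAK1 shRNA cells on the log2 scale, and COL1A2, COL3A1 and PDGFRA were not well above background. DCN (11.98 and 11.74 against 12.76 and 12.70) made up most of this sum. Of the 4 summed, 3 were higher, LUM (log2 fold change 1.79), COL1A1 (0.87) and DCN (0.87), and PDGFRB was lower (-0.58). The summed level of 5 of 6 leukocyte markers was 13.06 and 12.79 against 13.40 and 13.36. CD79A (12.92 and 12.63 against 13.26 and 13.23) made up most of this sum. CD14, higher with a log2 fold change of 1.23, was left out of it because of a flagged spot. Of the 6, 3 were higher, CD14, CD79A (0.47) and ITGAM (0.46), and 0 were lower. The other 3, among them PTPRC, the defining leukocyte gene (0.12), did not pass the threshold. The summed level of 3 of 6 neuron markers was 9.56 and 9.40 against 10.38 and 10.33, and RBFOX3, GAP43 and ELAVL4 were not well above background. Of the 3 summed, SYT1 was higher (log2 fold change 1.58), while SNAP25 (0.19) and NEFL (-0.02) did not pass the threshold. The neuron-linked genes TUBB3 and TUBA1A, outside this list, fell. The summed level of the 4 pan-epithelial markers was 16.58 and 16.55 against 16.91 and 16.81, and that of 7 of 8 basal markers was 18.65 and 18.50 against 18.42 and 18.47. All of these sums but the basal one were higher on both PAK1 shRNA arrays than on either control array, and their part in the result was not tested.

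The falls of the 10 genes kept their direction under all 19 other settings wherever a value could be computed. STMN1 ranged from -3.84 to -1.76, the upper end being the mean over its 2 probes, TUBA1B from -3.38 to -3.15, TUBB from -2.70 to -2.41 and TUBB6 from -0.75 to -0.45.

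**Figure D3:**
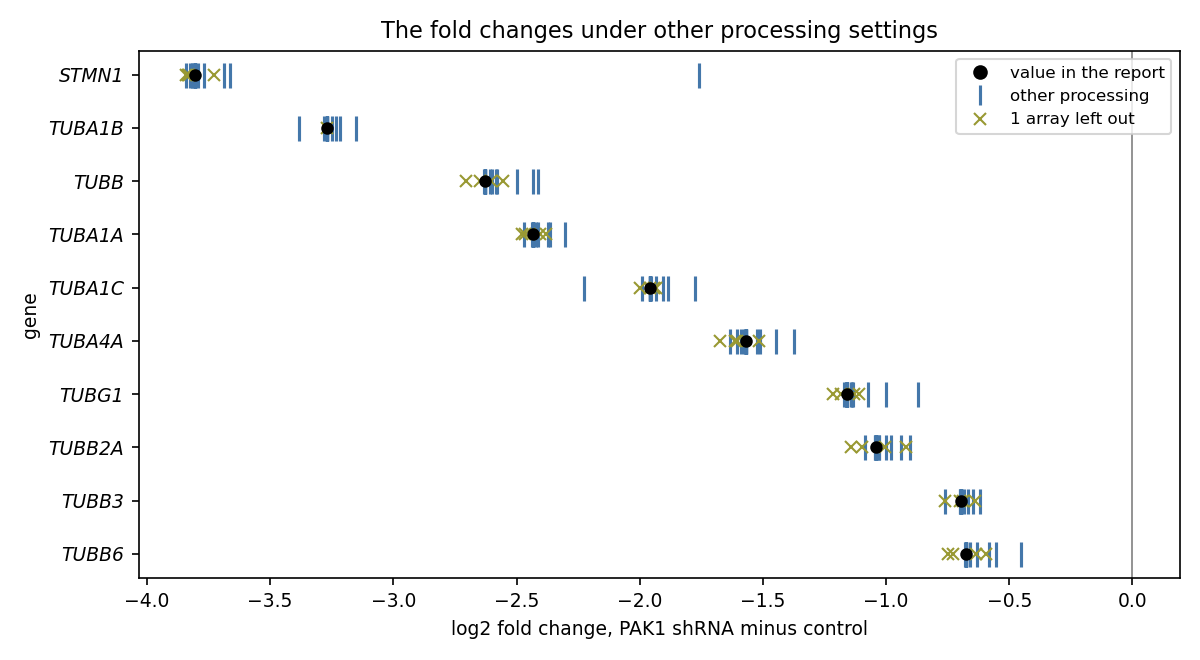
Log2 fold change of each of the 10 genes, PAK1 shRNA minus control, with the value reported (black point), with other processing settings (bars) and with 1 array left out (crosses). All values lie below 0, and STMN1 alone has a setting far from the rest, at -1.76.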

How the data were processed

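Labelled RNA of 2 control and 2 PAK1 shRNA samples was measured in 1 colour on Agilent whole genome arrays of 1 slide. The authors deposited each spot's intensity from Agilent Feature Extraction 9.5 and, as a second file, log2 values that served as an alternative. Probe positions (hg19) are those of the scanner files. Mouse arrays were not analysed here. Here, mean intensities were corrected with normexp (offset 50), its parameters fitted per array without spots of flagged background, since a fit on all spots put the background mean at -666 and -740 in control cells but -10.7 and -10.2 in PAK1 shRNA cells. Control and flagged spots were left out, arrays quantile normalized and spots averaged per probe. A probe was kept if both arrays of a group had it well above background. The brightest probe with values on all arrays, or else the brightest, stood for its gene. Genes were tested with lmFit and eBayes (limma 3.58.1, R 4.3.3), Benjamini-Hochberg adjustment and a threshold of 0.05, and the script was tested on simulated data. Requiring a value on all 4 arrays would have dropped TUBA1B. The probe was kept by requiring a value in each group, a choice made after this loss was seen.

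The 10 genes, the lists, the background fit and tests were chosen with earlier results of these data known. Genes named were the 10 with all their probes, PAK1, every measured gene of the other tubulin, other stathmin and stathmin kinase lists, TBCA to TBCE, the 2 largest rises and falls past the threshold of each other list (among genes that every array had well above background), and the 3 genes most like STMN1 and TUBB. Markers are named outside this rule. The sequence of a TUBA1A probe is not reported here.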

Additional observations from a re-analysis of the deposited data

How the results depend on the processing

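Over 19 other settings, 184 of 185 fold changes of the 10 genes kept their direction and stayed past the threshold, and none changed direction. The exception was TUBA1B, with an adjusted p of 0.078 under an ordinary t-test after Benjamini-Hochberg adjustment, a test that the study's statistics section names in general, while its array methods name limma. TUBA1B had no value without control replicate 2, without either PAK1 shRNA replicate, with the replicate block, or when a value on all 4 arrays was required. The last setting was chosen after seeing the data, and 9 of 9 genes were lower under it.

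The median of the 10 genes, -1.76, was -1.57 under the mean over probes. Over the 9 genes other than TUBA1B, it was -1.57 with only probes that have a value on all arrays. With the replicate number as a block it was also -1.57, over the same 9 genes. With each array left out it was -1.81 to -1.51, over 10 genes without control replicate 1 and over these 9 without any other array. Whether the replicate numbers pair the samples is not known from the labels. Deviations of same-numbered arrays had a correlation of 0.0077 over 26303 probes, which shows no shared shift but cannot tell how the samples were made. After Benjamini-Hochberg adjustment, the ordinary t-test called 4223 genes higher and 4610 lower, against 6717 and 7021 by limma, and it also lost the calls of TUBD1, CAMK4, TBCC and TBCD. With each array left out, 0 to 1 of the 18 probes were higher, the count being 0 without control replicate 1, PAK1 shRNA replicate 1 or PAK1 shRNA replicate 2. The median of all genes moved to 0.11 under the 75th percentile scaling and to 0.14 under median centring. PAK1 stayed lower under every setting run. A slide block could not be fitted to 1 slide. Signal over background limits the dim probes, such as the second STMN1 probe and TUBB4Q.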
